A study of Mus musculus with 8 samples.

Results

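*Gal*, *Sostdc1*, *Gm4744*, and *Ifi27l2b* are 4 of the 48709 genes with a value in each of 8 RNA-Seq libraries of mouse pancreas. They were picked from these same libraries, for a steep fall with FAEE-SAP in WT mice or for a large excess in cKO over WT mice, and no number was set for either. The values that chose them are therefore given as description and without a test. The response of cKO mice to FAEE-SAP was not used in the choice of *Gal*, *Sostdc1*, and *Gm4744* and was tested for these 3. It is not fully independent, because its FAEE-SAP libraries also entered the comparison of the genotypes. No treatment was named for the excess in cKO, so the cKO saline libraries may have entered the choice as well.

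FAEE-SAP is a model of alcohol-related severe acute pancreatitis, in which palmitoleic acid (POA) and ethanol are injected i.p. and form fatty acid ethyl esters in the body. All mice were males of 8 weeks, fasted before the injections, and their pancreata were taken 24 hours after the start. The WT saline, WT FAEE-SAP, cKO saline, and cKO FAEE-SAP groups have 2 libraries each, with no label on whether mice were pooled. The cKO mice carry 2 floxed copies of *Pfkfb3* and a *Pdx1*-Cre transgene. This Cre acts in the lineage that gives rise to acinar, duct, and islet cells, and blood, vessel, and stromal cells keep the gene. The floxed line was made in C57BL/6J eggs. The WT mice were bought from a supplier and no strain, floxed allele, or Cre is given for them, so the loss of *Pfkfb3* and the stock of mice cannot be told apart. Buprenorphine was given with POA and ethanol, and the sources used here do not say whether saline mice had it.

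The libraries held 22.8 to 37.6 M reads, worked out from the steps between low values. Between 49.4% and 63.7% of the summed RPKM (reads per kilobase of exon, relative to the mapped reads of a library) lay in the 10 highest genes. Levels are therefore given as scaled RPKM, the deposited RPKM divided by a library factor of 0.621 to 2.02 found by the median of ratios over all 8 libraries. *Pfkfb3* itself had overlapping levels in the genotypes, with 1.70 and 1.69 in WT saline, 1.85 and 3.21 in WT FAEE-SAP, 0.880 and 2.10 in cKO saline, and 1.74 and 2.82 in cKO FAEE-SAP. A value per gene does not check the genotype labels, since the deleted exons are a small part of its length. The 10 acinar markers were present in every library, so the tissue is pancreas as labelled. Their summed level was 120301 to 137160 in WT saline, 31872 to 36607 in WT FAEE-SAP, 151566 to 162114 in cKO saline, and 80688 to 81231 in cKO FAEE-SAP.

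Acinar cells make up most of the pancreas and fill their secretory granules with proenzymes such as trypsinogens. Galanin is a neuropeptide of enteric and pancreatic nerves that acts through G protein-coupled receptors and is known to restrain insulin and exocrine secretion. Sclerostin domain containing 1 (*Sostdc1*) is a secreted protein that binds BMPs and the WNT coreceptor LRP6 and limits both signals. *Ifi27l2b* belongs to the *Ifi27* family of small, hydrophobic, interferon-inducible proteins. *Gm4744* has only a gene model number for a name.

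In WT mice, 3 of the 4 genes had saline and FAEE-SAP libraries that did not overlap, and all 3 were lower with FAEE-SAP. Over all 10894 genes tested, 58.8% had groups that did not overlap, with 29.1% lower in both FAEE-SAP libraries, so with 2 libraries a lack of overlap is common. As a stricter background, 755 genes (6.93%) were called in that comparison, of which 420 (3.86%) were lower and 335 (3.08%) higher. A gene was called when its Benjamini-Hochberg adjusted p from limma was under 0.05 and its level changed 2-fold or more. The mean level of *Gal* was 11.7-fold higher in WT saline than in WT FAEE-SAP, that of *Sostdc1* 15.1-fold, and that of *Gm4744* 36.7-fold. *Ifi27l2b* did not follow them. It was low in all 4 WT libraries, its WT groups overlapped, and it was chosen through its excess in cKO. A name for these genes as transcripts suppressed by FAEE-SAP in WT thus holds for 3 of the 4.

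**Figure D1:**
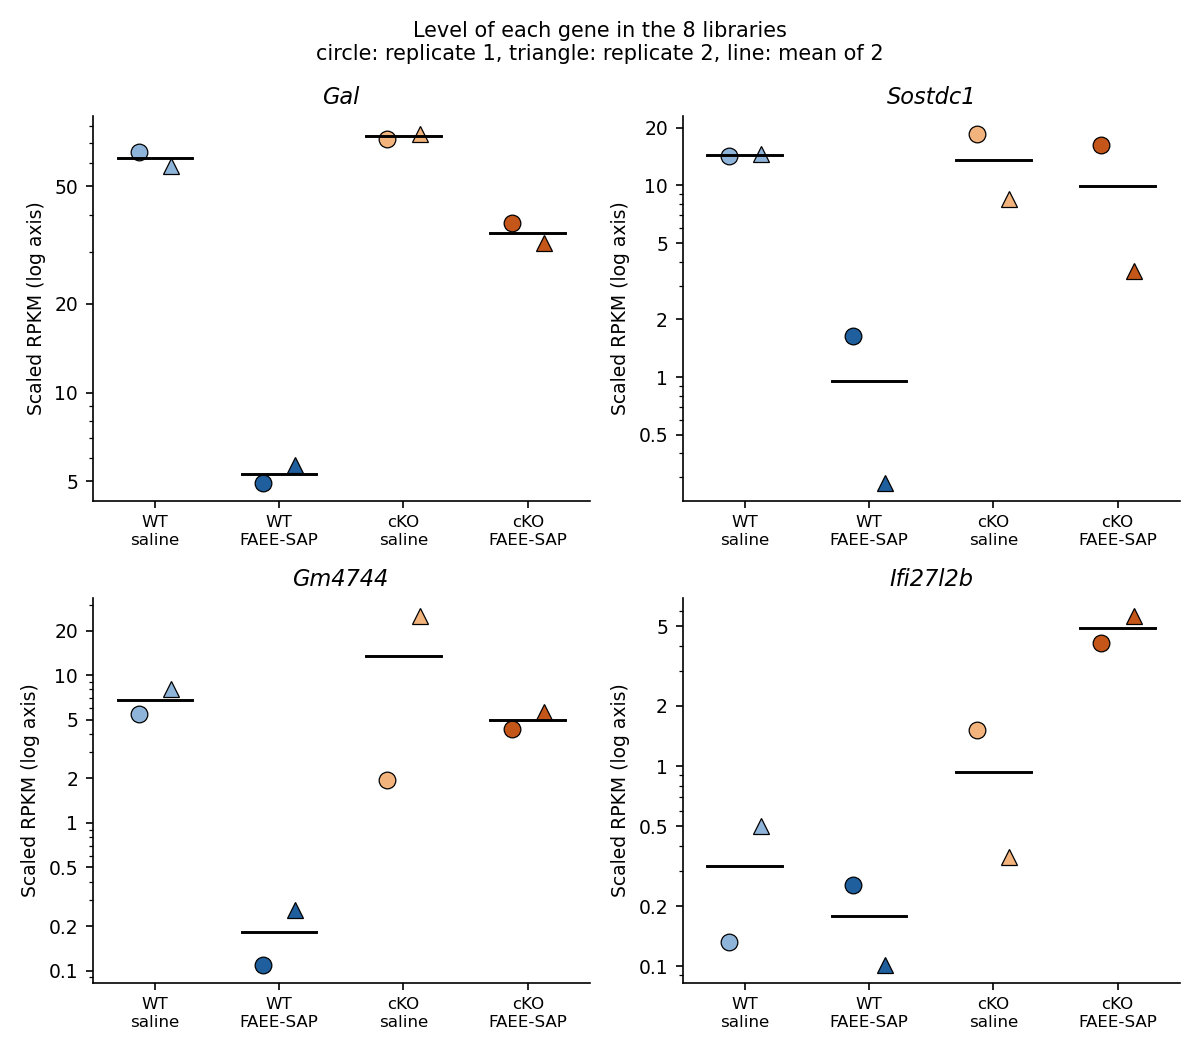
Scaled RPKM (log axis) of the 4 genes in the 8 libraries, with a circle for replicate 1, a triangle for replicate 2, and a line at the mean of each group. *Gal*, *Sostdc1*, and *Gm4744* are lowest in WT FAEE-SAP, with means of 5.31, 0.958, and 0.184, while *Ifi27l2b* is highest in cKO FAEE-SAP, with a mean of 4.88.

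With FAEE-SAP, the cKO libraries were above the WT libraries for all 4 genes without overlap. Of all 11008 genes tested, 26.5% had both cKO libraries above both WT libraries. In that comparison 140 genes (1.27%) were called, of which 95 (0.863%) were higher in cKO. The ratio of the cKO mean to the WT mean was 6.57 for *Gal*, 10.4 for *Sostdc1*, 26.9 for *Gm4744*, and 27.3 for *Ifi27l2b*. For *Sostdc1* the log2 difference of 3.31 became 2.15 without replicate 2 of WT FAEE-SAP, 2.26 without replicate 1 of cKO FAEE-SAP, and 4.40 without either of the other 2 libraries. For *Gm4744* the log2 difference of 4.34 became 2.65 with 1 added to the values before the log2 in place of 0.1. That of *Ifi27l2b*, at 4.36, became 2.64. This comparison of the genotypes and the fall in WT share the WT FAEE-SAP libraries. With saline, only *Gal* had genotypes that did not overlap, and its ratio was 1.19. Of all 8715 genes tested, 16.3% were likewise higher in both cKO libraries. None was called with limma (0%), and 187 had an unadjusted p under 0.05.

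The response of the cKO mice to FAEE-SAP was called for 0 of the 3 genes tested for it. In the same comparison 5 of 9423 genes (0.0531%) were called, all higher, and 888 had an unadjusted p under 0.05. The log2 fold change of *Gal* was -1.06 (SE 0.18, limma adjusted p = 0.269, unadjusted p = 0.00251). *Sostdc1* had -0.67 (SE 0.82) and *Gm4744* -0.49 (SE 1.19), with limma adjusted p-values of 0.804 and 0.909. *Ifi27l2b* had 2.51, given as a description, because it was chosen for its level in cKO and passed the filter only through cKO FAEE-SAP, where it is high.

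*Gal* was the most abundant of the 4. It lies on chromosome 19 (GRCm38, chr19:3409915-3414544, minus strand) and has 6 exons. The precursor is cut to release mature galanin, and the 87 bases that encode the peptide are shown. The stretch lies at chr19:3411601-3413334 on the minus strand and spans an intron, and the capitals mark the 15 bases of the conserved start of galanin. A motif of these codons, with any base at the variable positions, was searched on the coding strand and found in 27 of 21877 coding genes (0.123%). The motif alone therefore does not identify *Gal*.
Gal: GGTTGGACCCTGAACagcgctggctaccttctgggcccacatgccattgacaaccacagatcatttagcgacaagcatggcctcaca
The coding sequences of *Gal* and its relative *Galp* were 62.4% identical. No 50-base window of *Gal* was shared with another gene, so its level does not depend on how reads of paralogs were split.

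The scaled RPKM of *Gal* was 65.7 and 58.8 in WT saline, with a mean of 62.2 ± 4.86 (SD, n = 2). It was 4.93 and 5.70 in WT FAEE-SAP, with a mean of 5.31 ± 0.540 (SD, n = 2). In cKO it was 72.7 and 75.5 with saline, for a mean of 74.1 ± 1.97, and 37.7 and 32.1 with FAEE-SAP, for a mean of 34.9 ± 3.96 (SD, n = 2). The order of the groups was cKO saline, WT saline, cKO FAEE-SAP, and WT FAEE-SAP, and no neighbours in that order overlapped. Of 9423 genes tested in cKO, 23.6% were likewise lower in both FAEE-SAP libraries. The order of the first 2 depends on the scaling, as the deposited RPKM was 45.1 and 50.2 in cKO saline against 47.8 and 50.9 in WT saline. About 1064 and 1093 reads of *Gal* in the WT saline libraries stood against about 180 and 283 in WT FAEE-SAP. Among the 11133 genes kept, 168 were above *Gal* in WT saline, 1788 in WT FAEE-SAP, 169 in cKO saline, and 258 in cKO FAEE-SAP.

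The remaining galanin genes were near or below the limit for a test. Of *Galr1* and *Galr2*, which are galanin receptors, *Galp*, a galanin-like peptide, and *Spx*, a peptide ligand of galanin receptors, 0 of 4 passed the filter of RPKM 0.5 in at least 2 libraries. *Galr1* was 0.641 and 0.103 in WT saline and 0.0075 and 0.011 in WT FAEE-SAP. In cKO it was 0.327 and 0.567 with saline and 0.181 and 0.797 with FAEE-SAP. It was thus lowest in WT FAEE-SAP, with values near the floor that were not tested. Of 14 other neuropeptides of gut and pancreas, only *Penk*, the enkephalin precursor, passed the filter for the treatment comparisons. *Penk* fell with FAEE-SAP in WT (log2 fold change -1.55, limma adjusted p = 0.0313), a call lost with the deposited values (-0.29, limma adjusted p = 0.332) and when any of 3 of the 4 libraries was left out. Its change in cKO was -0.43 (limma adjusted p = 0.767). The 8 neuron and glia markers summed to 1.06 to 1.60 in the 8 libraries, below the level of *Gal* in each, and their part in the result was not tested.

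The genes whose pattern was most like that of *Gal* over the 8 libraries were *Tmed6* (Pearson r = 0.997), *Clps* (0.996), *Cpa1* (0.994), *Fam46c* (0.994), and *Cela2a* (0.994), out of 11132 genes. *Clps* encodes colipase, *Cpa1* a procarboxypeptidase, and *Cela2a* an elastase, all products of acinar cells, and *Tmed6* is a member of the p24 family of secretory pathway proteins. *Cpa1* and *Cela2a* are also on the acinar marker list. The points are 8 libraries in 4 groups, so these correlations describe differences among the groups. *Clps* was 20768 and 19496 in WT saline, 1488 and 1313 in WT FAEE-SAP, 21609 and 23160 in cKO saline, and 11085 and 11441 in cKO FAEE-SAP. *Tmed6* was 204 and 195, 27.9 and 26.8, 247 and 216, and 119 and 119 in the same order of groups. These partners were picked for their correlation. *Cuzd1*, chosen after its values were seen, is an acinar marker that followed them only in part. Most acinar markers were lower with FAEE-SAP, as given below. *Cuzd1*, a zymogen granule protein, was 589 and 402 in WT saline, 404 and 494 in WT FAEE-SAP, 565 and 679 in cKO saline, and 374 and 516 in cKO FAEE-SAP. It was lower with FAEE-SAP in cKO without overlap, as *Gal* was, but its WT groups overlapped, as did its genotypes with FAEE-SAP and with saline.

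Of the 10 acinar markers, 10 were lower with FAEE-SAP in WT with 7 called, 9 were lower in cKO with 0 called, and among FAEE-SAP libraries 9 were higher for cKO than for WT with 4 called. The count in WT was 1 without a filter, 3 with quantile normalization, and with the deposited values 1 lower and 1 higher. For those values the split in cKO was 5 higher and 5 lower, and that between genotypes 6 higher and 4 lower. The count between genotypes was 0 without a filter, without the trend, with quantile normalization, and without either WT FAEE-SAP library or replicate 2 of cKO FAEE-SAP, 1 with the deposited values, and 2 without replicate 1 of cKO FAEE-SAP. In bulk tissue, fewer acinar cells and less RNA per acinar cell cannot be told apart, and the part of the acinar markers in the values of *Gal* was not tested. Of the 10 islet markers, 8 were lower with FAEE-SAP in WT, with *Gcg* (glucagon) and *Sst* (somatostatin, log2 fold change -1.48) called, and among FAEE-SAP libraries 8 were higher for cKO than for WT, of which *Gcg*, *Sst*, and *Iapp* (amylin) were called. In cKO 9 of 9 tested were higher with FAEE-SAP than with saline, unlike *Gal*, and 0 were called. With the deposited values 9 of 10 were higher in WT FAEE-SAP than in WT saline, with 3 called, and the genotypes split into 5 higher and 5 lower, with 2 called lower in cKO. The counts of islet markers called fell to 0 or 1 in WT and to 0 or 2 between genotypes as each library was left out. Their summed levels were 287 to 342 in WT saline, 183 to 241 in WT FAEE-SAP, 304 to 375 in cKO saline, and 431 to 454 in cKO FAEE-SAP, and their part in the values of *Gal* was not tested.

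**Figure D2:**
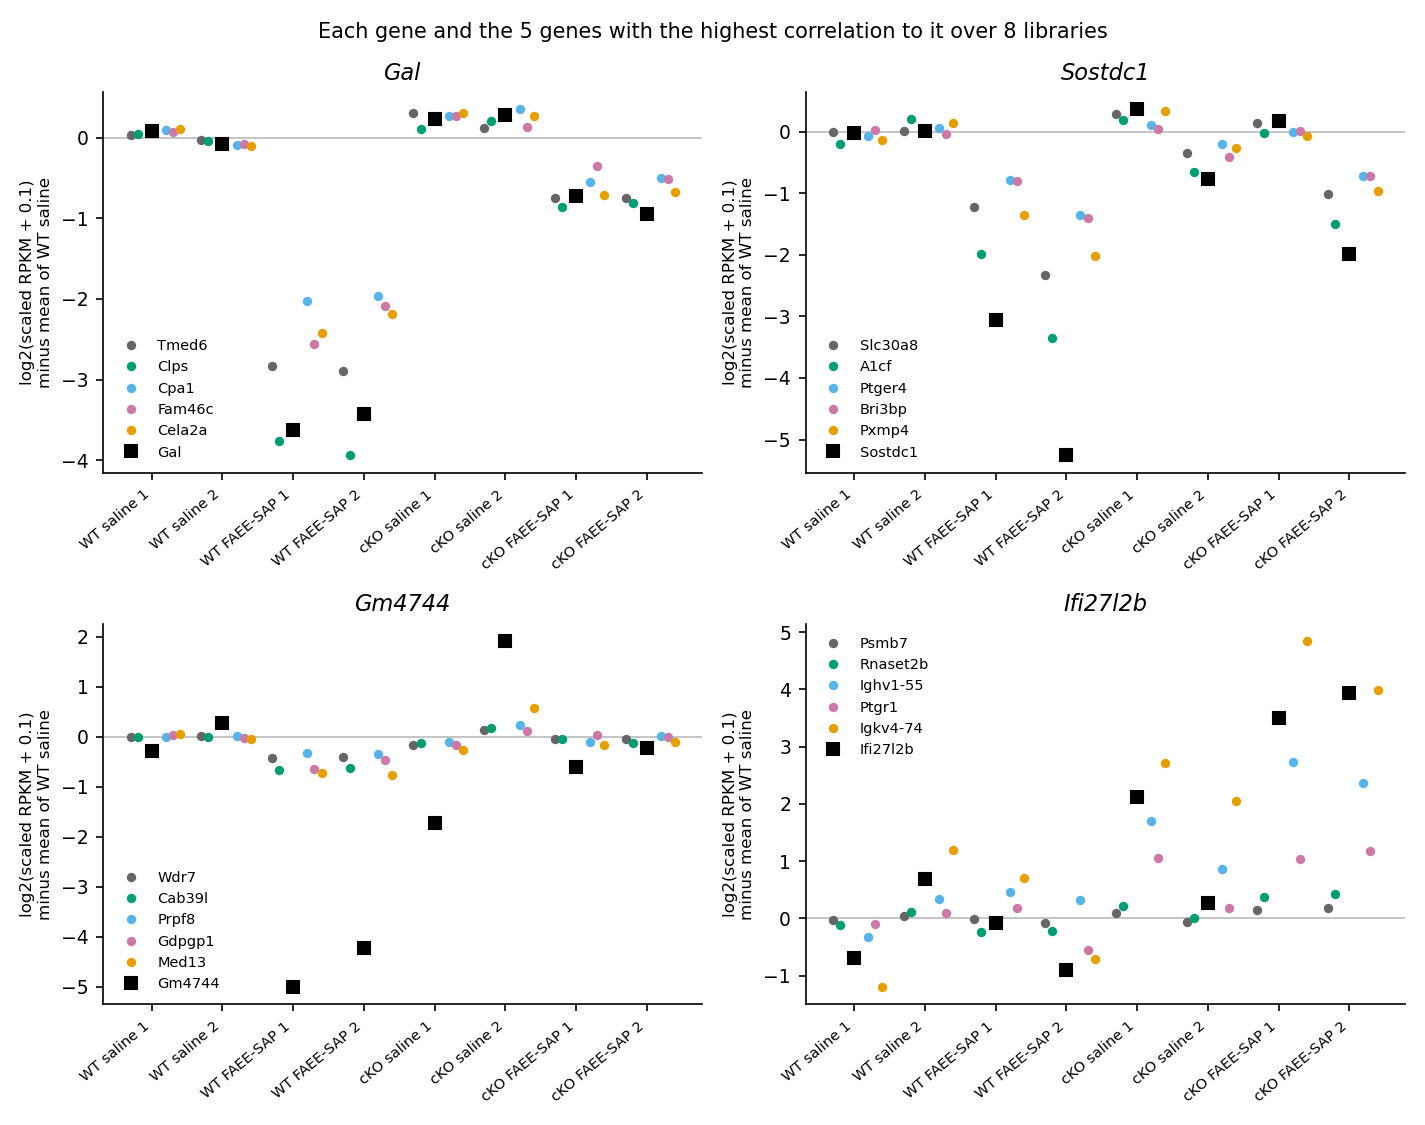
Difference of log2(scaled RPKM + 0.1) from the mean of WT saline for each of the 4 genes (black squares) and the 5 genes with the highest Pearson correlation to it (coloured points) in the 8 libraries on the x axis. The points of *Gal* lie among those of the 5 genes with r of 0.994 to 0.997, and *Gm4744* moves over a far wider range than the genes most like it.

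*Sostdc1* is on chromosome 12 (GRCm38, chr12:36314139-36318452, plus strand) with 2 exons. Its coding sequence was 63.0% identical to that of *Sost*, the sclerostin gene, and no 50-base window was shared with another gene. The scaled RPKM was 14.3 and 14.6 in WT saline, with a mean of 14.4 ± 0.218 (SD, n = 2), and 1.64 and 0.279 in WT FAEE-SAP, with a mean of 0.958 ± 0.959 (SD, n = 2). In cKO saline it was 18.6 and 8.45, and in cKO FAEE-SAP it was 16.3 and 3.56. The means of the cKO groups were 13.5 ± 7.17 and 9.95 ± 9.03 (SD, n = 2), and these groups overlapped. WT FAEE-SAP was below the other 3 groups in both libraries, and the other 3 groups could not be ordered beyond their spread.

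Replicate 2 was below replicate 1 in WT FAEE-SAP, cKO saline, and cKO FAEE-SAP. The reads behind these values were about 522 and 612 in WT saline, 135 and 31 in WT FAEE-SAP, 772 and 313 in cKO saline, and 843 and 190 in cKO FAEE-SAP, so the lowest value rests on about 31 reads. The direction of the cKO response rested on a single library. Without replicate 2 of cKO FAEE-SAP its log2 fold change was 0.48 (limma adjusted p = 0.919), against -0.67 with all libraries. The fall in WT ranged from -5.25 to -3.03 on the log2 scale as each library was left out.

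Of 33 other genes of BMP and WNT signaling tested in WT, 13 were higher and 20 lower in FAEE-SAP libraries. The median change was -0.21 on the log2 scale beside 0.02 over all genes, and ranged from -0.35 without replicate 2 of WT FAEE-SAP to -0.05 without replicate 2 of WT saline. A single gene was called, *Bmpr1b*, which encodes a type I BMP receptor (log2 fold change -2.92, SE 0.26, limma adjusted p = 0.00530). It passed the filter only through WT saline, where it is high (1.76 and 1.41, against 0.127 and 0.154 in WT FAEE-SAP). It was not tested without either WT saline library, and its call was lost without replicate 2 of WT FAEE-SAP (limma adjusted p = 0.0657). Among the other secreted antagonists, 3 of 8 were higher, 5 lower, and 0 called. Of 8 target genes, 7 were lower and 0 called. In cKO 26 genes of these lists were tested, with 12 higher, 14 lower, and 0 called. That split was 15 higher and 7 lower without replicate 2 of cKO saline, and 14 and 11 without replicate 1. With FAEE-SAP 27 of 38 were higher and 11 lower in cKO than in WT, again with 0 called. These directions turn with the deposited values, for which 32 of 33 were higher with FAEE-SAP in WT, with 16 called higher and 1 lower, and 35 of 38 were lower in cKO than in WT, with 8 called lower and 1 higher.

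The genes most like *Sostdc1* were *Slc30a8* (r = 0.996), *A1cf* (0.994), *Ptger4* (0.988), *Bri3bp* (0.986), and *Pxmp4* (0.984). *Slc30a8*, the zinc transporter of insulin granules, was 0.639 and 0.643 in WT saline, 0.219 and 0.048 in WT FAEE-SAP, 0.801 and 0.486 in cKO saline, and 0.720 and 0.269 in cKO FAEE-SAP. *A1cf*, a cofactor of apolipoprotein B mRNA editing, was 1.07 and 1.46, 0.242 and 0.0330, 1.45 and 0.763, and 1.23 and 0.381. In both, as in *Sostdc1*, replicate 2 was the lower library of WT FAEE-SAP, cKO saline, and cKO FAEE-SAP. These partners were near or below a scaled RPKM of 1, apart from *Pxmp4* at 1.26 to 6.84. The summed duct markers were also lower in replicate 2 of cKO saline, at 53.4 and 32.4. They were close together in WT FAEE-SAP, at 72.1 and 69.6, and in cKO FAEE-SAP, at 68.7 and 68.98, and their part in these values was not tested.

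*Gm4744* lies at the edge of the trypsinogen gene cluster on chromosome 6 (GRCm38, chr6:40948375-40951870, minus strand) and has 4 exons in a transcript of 792 bases. GENCODE lists it as protein coding and RefSeq as a pseudogene, with *Tryx4* as a synonym. Its nearest measured neighbours at higher coordinates are *1810009J06Rik*, at a distance of 12884 bp, and *Gm2663*, at 43960 bp, both trypsinogen-like. The annotated coding sequence of 462 bases aligned to bases 280 to 741 of the 741-base coding sequence of the trypsinogen *2210010C04Rik*, with 362 of 458 aligned bases (79.0%) identical. Identity was 75.7% to *1810009J06Rik*, 71.4% to *Try4*, and 68.6% to *Prss3*, the lowest of 11 family members, beside 64.4% to the elastase gene *Cela1* and 60.6% to the chymotrypsinogen gene *Ctrb1*. A description of the 4 genes as unrelated to digestive enzymes thus does not hold for the sequence of *Gm4744*, although its model lacks the stretch that holds the catalytic histidine.

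The stretch around the catalytic serine of trypsinogens is shown to set *Gm4744* beside its relatives, with the 17 bases of its motif in capitals. The motif was searched on the coding strand with any base at the variable codon positions. It was found in 106 of 21877 coding genes (0.484%) and in all 11 other measured family members. The motif of the histidine site, 14 bases searched in the same way, was found in 50 genes (0.229%), also including all 11. *Gm4744* had neither, and its capitals mark the aligned bases. The stretches lie on chromosome 6 (GRCm38) at chr6:40948574-40949360 minus strand for *Gm4744*, chr6:41031746-41032325 minus strand for *2210010C04Rik*, chr6:40967526-40968221 plus strand for *1810009J06Rik*, and chr6:40996039-40996734 minus strand for *Gm2663*, each across an intron.
Gm4744: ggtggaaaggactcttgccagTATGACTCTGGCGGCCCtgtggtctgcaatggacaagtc
2210010C04Rik: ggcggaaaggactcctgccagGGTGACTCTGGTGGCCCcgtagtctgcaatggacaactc
1810009J06Rik: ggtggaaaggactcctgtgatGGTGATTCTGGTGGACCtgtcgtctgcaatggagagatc
Gm2663: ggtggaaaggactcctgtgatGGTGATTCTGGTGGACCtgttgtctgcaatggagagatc
In this window 52 of 60 bases of *Gm4744* matched *2210010C04Rik*. The match is a description of letters and not a measurement of activity.

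The scaled RPKM of *Gm4744* was 5.44 and 8.05 in WT saline, with a mean of 6.75 ± 1.85 (SD, n = 2), and 0.109 and 0.259 in WT FAEE-SAP, with a mean of 0.184 ± 0.106 (SD, n = 2). The latter rest on about 4 and 13 reads. In cKO FAEE-SAP it was 4.28 and 5.61, with a mean of 4.95 ± 0.937 (SD, n = 2). The cKO saline libraries lay far apart, at 1.94 and 25.2, for a mean of 13.5 ± 16.4 (SD, n = 2). WT FAEE-SAP was below the other 6 libraries, and the cKO saline group overlapped with WT saline and with cKO FAEE-SAP. With all libraries the response in cKO was -0.49 on the log2 scale, and without replicate 2 of cKO saline it was 1.32 (limma adjusted p = 0.443), so that library set the direction. Among 50-base windows of the transcript, 202 of 743 (27.2%) were shared with *Gm29588*, an antisense gene listed at 0 in every library. The library kit keeps strand, and how reads were counted is not given in the sources used here.

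Trypsinogen genes of the cluster fell with FAEE-SAP in WT. Of 11 other members of the fixed list in the files 10 were tested, with 8 called lower and 1 higher. Their median change was -1.58 on the log2 scale beside 0.02 over all genes. The largest fall in the list was that of *2210010C04Rik* (-2.68, limma adjusted p = 0.00257), followed by *Try4* (-1.84) and *Gm5771* (-1.64). The neighbour *1810009J06Rik*, which is not in the list, also fell (-2.59, SE 0.25, limma adjusted p = 0.00597, and 0.0508 without replicate 2 of WT FAEE-SAP). *Try5*, *Try10*, *Prss1*, *Prss2*, and *Prss3* account for the other decreases but for *Gm10334* (-0.93, limma adjusted p = 0.107), and *Gm5409* was listed at 0. The change of *Gm4744*, at -4.73, was more negative than any of these, but the gene was chosen for its fall. With 1 added to the values before the log2 in place of 0.1, its change was -2.92, and with 0.01 it was -5.24. With the deposited values, the split was 7 lower and 3 higher with 1 called in each direction, and leaving out a library left 3 to 8 called lower. The count called lower was 3 with quantile normalization, 2 without a filter, and 5 without the trend or in a model of all 8 libraries. With FAEE-SAP, 8 of the 10 were called higher in cKO than in WT, with a median of 1.34. *1810009J06Rik* was also called, at 3.47 (SE 0.21, limma adjusted p = 0.0127). The count of the list was 0 with the deposited values, without a filter, and without the trend, 1 with quantile normalization, and 5 in a model of all 8 libraries. It was 4 without replicate 1 of cKO FAEE-SAP, 2 without replicate 2, and 0 without either WT FAEE-SAP library, and the call of *1810009J06Rik* was lost in the latter case (limma adjusted p = 0.0772 and 0.108 without replicate 1 or 2 of WT FAEE-SAP). In cKO 9 of 10 were lower with FAEE-SAP, with a median of -0.86 and 0 called. The median was -0.53 without replicate 1 of cKO saline, and -0.23 with 7 lower and 3 higher with the deposited values.

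The 2 neighbours of *Gm4744* moved in opposite directions in WT. *1810009J06Rik* was 15.9 and 11.3 in WT saline, 1.95 and 2.40 in WT FAEE-SAP, 11.8 and 68.8 in cKO saline, and 26.3 and 23.7 in cKO FAEE-SAP. *Gm2663* was 15.9 and 13.9 in WT saline, 228 and 197 in WT FAEE-SAP, 7.42 and 48.9 in cKO saline, and 253 and 173 in cKO FAEE-SAP. It was thus the gene of the family that rose (log2 fold change 3.82, SE 0.17, limma adjusted p = 0.00127), and it had the same direction in cKO (3.47, SE 0.91, limma adjusted p = 0.430). Their coding sequences were identical in 737 of 741 bases (99.5%), so reads could be split between them and their levels are uncertain. Replicate 2 of cKO saline was the high library of that group for *Gm4744* and for both neighbours. For 4 other genes of the cluster replicate 1 was the high library of cKO saline, with 311 against 50.5 for *Gm5771*, 50.9 against 15.8 for *Gm10334*, 27.8 against 5.12 for *Prss1*, and 991 against 403 for *Prss3*. *Prss2*, *Try10*, *2210010C04Rik*, *Try4*, and *Try5* were instead somewhat higher in replicate 2, from 503 and 537 for *Try10* to 34342 and 43859 for *Try5*.

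**Figure D3:**
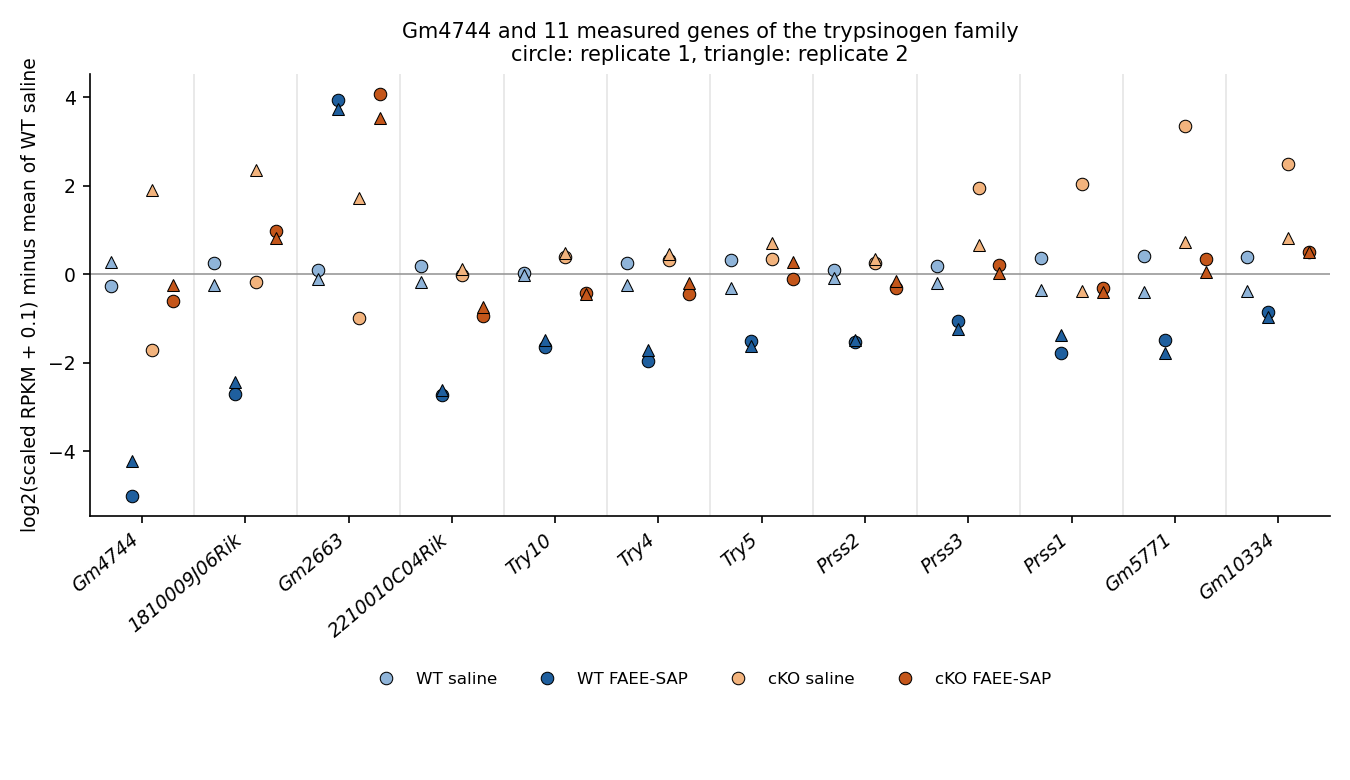
Difference of log2(scaled RPKM + 0.1) from the mean of WT saline for *Gm4744* and 11 measured trypsinogen family genes in the 4 groups, with a circle for replicate 1 and a triangle for replicate 2. *Gm4744* has the lowest WT FAEE-SAP points, *Gm2663* alone is above 0 with FAEE-SAP in WT, and the cKO saline libraries are far apart for *Gm4744* (1.94 and 25.2 scaled RPKM) and its neighbours.

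The pattern of *Gm4744* over the 8 libraries was most like those of *Wdr7* (r = 0.994), *Cab39l* (0.974), *Prpf8* (0.971), *Gdpgp1* (0.964), and *Med13* (0.962). None of these is a digestive enzyme. Their ranges were narrow, from 0.618 to 0.957 for *Wdr7*, from 6.54 to 9.79 for *Prpf8*, a core splicing factor, and from 1.43 to 3.77 for *Med13*, a Mediator subunit. They had their lowest 2 values in WT FAEE-SAP and their highest in replicate 2 of cKO saline, as *Gm4744* did. *Gm4744* correlated with *Gal* at r = 0.890 and with *Sostdc1* at r = 0.702, and *Gal* with *Sostdc1* at r = 0.890. A fall in the shared WT FAEE-SAP group is part of each of these values and is what the genes were chosen for.

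*Ifi27l2b* is on chromosome 12 (GRCm38, chr12:103450898-103457223, minus strand), with 7 exons, and is followed at lower coordinates by its relatives *Ifi27l2a*, at 7218 bp, and *Ifi27*, at 10659 bp. Its coding sequence was 87.4% identical to that of *Ifi27l2a* over 270 aligned bases. Of 949 windows of 50 bases, 2 (0.211%) were shared with *Ifi27l2a*, so few reads could be exchanged between them. The scaled RPKM of *Ifi27l2b* was 0.133 and 0.503 in WT saline and 0.256 and 0.101 in WT FAEE-SAP. These rest on about 3, 13, 13, and 7 reads, and the gene did not pass the filter in the treatment comparison of WT or in the genotype comparison with saline. In cKO saline it was 1.52 and 0.351, from about 39 and 8 reads. In cKO FAEE-SAP it was 4.12 and 5.64, from about 130 and 185 reads, with a mean of 4.88 ± 1.08 (SD, n = 2).

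The cKO FAEE-SAP libraries were above the other 6, and the order of the other 3 groups was not beyond their spread. The mean of cKO FAEE-SAP was 5.21-fold that of cKO saline without overlap, a description without a test. Of all genes tested in cKO, 19.6% had both FAEE-SAP libraries above both saline libraries. With the deposited values the libraries of cKO FAEE-SAP, at 4.31 and 5.50, were also above the other 6, which reached 0.945.

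The relatives of *Ifi27l2b* were more abundant in every library. *Ifi27l2a* was 4.08 and 16.6 in WT saline, 11.4 and 8.18 in WT FAEE-SAP, 10.96 and 4.76 in cKO saline, and 20.3 and 15.0 in cKO FAEE-SAP. *Ifi27* was 14.0 and 14.2, 9.84 and 6.41, 16.3 and 13.0, and 16.9 and 33.3 in the same order. With FAEE-SAP both were higher in cKO than in WT without overlap, by 1.56 on the log2 scale for *Ifi27* and 0.84 for *Ifi27l2a* (limma adjusted p = 0.129 and 0.176, both under 0.05 before adjustment). With the deposited values 1 of the 2 was higher and 1 lower in cKO. Neither was called in any comparison. Of 34 other interferon-stimulated genes such as *Isg15*, *Mx1*, and *Oas2*, 22 were tested with FAEE-SAP, with 9 higher and 13 lower in cKO than in WT and a median log2 difference of -0.15. That split rested on single libraries, with 13 higher, 6 lower, and a median of 0.16 without replicate 1 of WT FAEE-SAP, and 11 in each direction without replicate 1 of cKO FAEE-SAP. In cKO 13 of 14 were higher with FAEE-SAP than with saline, with a median of 0.53 beside -0.01 over all genes, and 0 were called in any of the comparisons, although 2 were called higher in WT without replicate 2 of WT saline. With the deposited values 1 was called higher in cKO, 14 higher in WT, and 8 of 22 lower in cKO than in WT.

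The genes most like *Ifi27l2b* were *Psmb7* (r = 0.958), a proteasome subunit, *Rnaset2b* (0.955), a ribonuclease, *Ighv1-55* (0.949), *Ptgr1* (0.944), and *Igkv4-74* (0.942). *Ighv1-55* and *Igkv4-74* are immunoglobulin variable segments, transcribed in B and plasma cells. *Ighv1-55* was 0.350 and 0.611 in WT saline, 0.675 and 0.608 in WT FAEE-SAP, 1.75 and 0.923 in cKO saline, and 3.67 and 2.80 in cKO FAEE-SAP. *Igkv4-74* reached 6.503 and 3.53 in cKO FAEE-SAP, against 0.273 and 0.0400 in WT FAEE-SAP. Reads of such segments can be shared with close paralogs. The plasma cell gene *Jchain*, the joining chain of secreted immunoglobulin, was 3.81 and 6.81 in WT saline, 3.29 and 2.58 in WT FAEE-SAP, 7.41 and 7.67 in cKO saline, and 12.7 and 6.88 in cKO FAEE-SAP. With FAEE-SAP it was higher in cKO than in WT without overlap, and was not called (log2 difference 1.65, limma adjusted p = 0.0897). *Mzb1*, a chaperone of plasma cells, likewise separated these genotypes, with 4.17 and 1.94 in cKO against 1.74 and 1.19 in WT (limma adjusted p = 0.272), while the B cell genes *Cd79a* and *Ms4a1* overlapped. The 6 leukocyte markers summed to 89.4 to 117 in WT FAEE-SAP and 66.8 to 87.4 in cKO FAEE-SAP. The part of these markers in the level of *Ifi27l2b* was not tested. *Psmb7* spanned only 4.60 to 5.54 over the 8 libraries, as the correlation does not measure the size of a change.

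**Figure D4:**
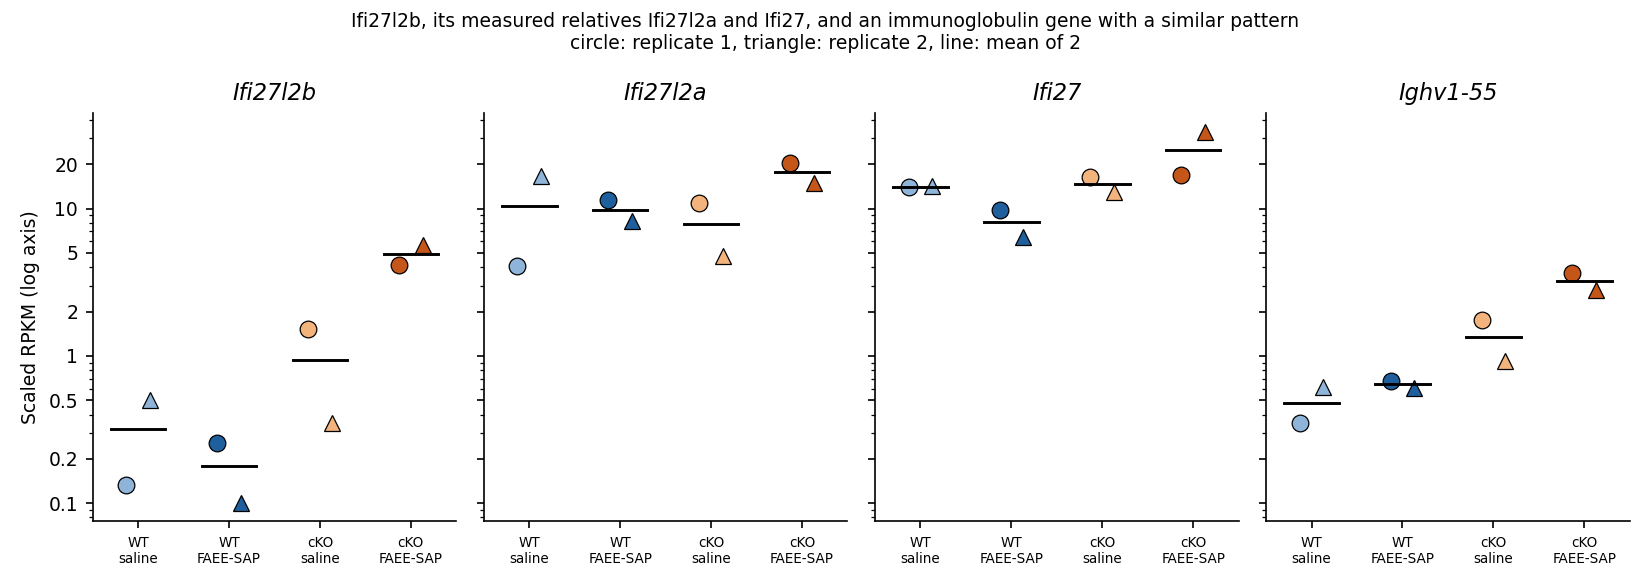
Scaled RPKM (shared log axis) of *Ifi27l2b*, *Ifi27l2a*, *Ifi27*, and *Ighv1-55* in the 4 groups, with a circle for replicate 1, a triangle for replicate 2, and a line at the mean. *Ifi27l2b* lies between 0.101 and 0.503 in WT and at 4.12 and 5.64 in cKO FAEE-SAP, below both relatives in every library.

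The genes that flank *Gal* and *Sostdc1* gave no call in any comparison. *Cpt1a*, 24182 bp from *Gal* and encoding the carnitine palmitoyltransferase that brings fatty acids into mitochondria, was 12.4 and 10.04 in WT saline and 9.34 and 17.3 in WT FAEE-SAP. *Ankmy2*, 116848 bp from *Sostdc1*, was 1.90 and 1.93 in WT saline and 1.24 and 0.877 in WT FAEE-SAP. Beside *Ifi27l2b*, *Ppp4r4*, a regulatory subunit of protein phosphatase 4, fell with FAEE-SAP in WT (log2 fold change -1.54, limma adjusted p = 0.0343) and was 0.801 and 1.84 in cKO FAEE-SAP. That call was lost when any of 3 of the 4 libraries was left out, and with the deposited values (-0.39, limma adjusted p = 0.222). *Serpina10*, which encodes a protease inhibitor of coagulation, was 0.443 and 0.773 in WT saline, 1.26 and 0.758 in WT FAEE-SAP, 0.378 and 0.356 in cKO saline, and 1.84 and 1.498 in cKO FAEE-SAP. Its cKO FAEE-SAP libraries were above the other 6, as for *Ifi27l2b*, and it was not called in any comparison.

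The difference between the responses of the genotypes, which the choice of the genes used, was 2.44 on the log2 scale for *Gal*, 3.46 for *Sostdc1*, 4.10 for *Gm4744*, and 3.01 for *Ifi27l2b*. As each library was left out it ranged from 2.33 to 2.55, 2.36 to 4.54, 2.31 to 5.94, and 2.09 to 3.95, respectively. The ends were set by the cKO saline libraries for *Gm4744* and *Ifi27l2b*, and for *Sostdc1* by replicate 2 of each FAEE-SAP group. Over all 11133 genes 8 (0.0719%) were called for this difference. For *Gal*, *Sostdc1*, and *Gm4744* it joins a fall in WT to a smaller or unresolved change in cKO, and for *Ifi27l2b* it comes from the cKO libraries. Scaling moved all values in common. As deposited, the median of all genes was 1.24 higher on the log2 scale with FAEE-SAP in WT and 0.57 higher in cKO, and 0.91 lower in cKO than in WT with FAEE-SAP, so changes here are relative to that median. On the deposited values the falls of *Gal*, *Sostdc1*, and *Gm4744* in WT were -2.22, -2.97, and -3.61.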

How the data were processed

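RNA-Seq of pancreas was used from 4 groups of 2 libraries, with genotype, treatment, and replicate taken from the titles. The authors prepared directional paired-end libraries, filtered reads with fastp, used CLC Genomics Workbench to map them to GRCm38 (Ensembl), and deposited RPKM for 48709 genes. How RPKM was computed is not given in the sources used here. Library totals were recovered from low values, of which 84.5% to 85.8% (under 20 reads) were whole within 0.1 reads. Reads per gene are therefore approximate.

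Genes were kept if 2 or more of the 4 libraries compared had an RPKM of 0.5 or more. Values were scaled by the median of ratios, and limma 3.58.1 (R 4.3.3) was run with an intensity trend on log2(scaled RPKM + 0.1). Fold changes are on that log2 scale and understate changes of low genes. Calls needed a Benjamini-Hochberg adjusted p under 0.05 and 2-fold or more change. The plan for counts was not used because the values are RPKM. An exact permutation test of 2 against 2 libraries cannot give a p under 0.33 and was not run. The labels do not say that libraries are separate mice, so p-values measure the spread between libraries, which may be technical.

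The members and lists were chosen with earlier results of these data known. Named genes are the members, *Pfkfb3*, called genes of some lists (up to 4 per list and comparison), and all galanin, *Ifi27*, and trypsinogen genes. Also named are the 5 most correlated genes, some of the 2 nearest measured genes on each side, and genes compared by sequence. *Cuzd1*, *Jchain*, *Mzb1*, *Cd79a*, and *Ms4a1* fall outside this rule and were chosen after their values were seen. *Isg15*, *Mx1*, and *Oas2* name the list only. Calls in WT, between genotypes, and for the interaction were used for lists and neighbouring genes, and not for the members. Annotation was GENCODE vM21 (GRCm38), matching 46370 genes (95.2%) by symbol, and Biopython 1.88 aligned coding sequences. Promoter and protein sequences were not used. On simulated data, 71.1% of genes changed 8-fold were called in the cKO comparison and 67.7% in the WT comparison. The share was 52.9% between genotypes with FAEE-SAP and 80.6% between genotypes with saline, with 0 calls where nothing was changed. With changed genes present, 1.19% to 5.83% of calls were of unchanged genes. Spreads were shuffled among genes, so these shares do not apply to low or variable genes in particular. Figures were drawn with matplotlib 3.10.9 in Python 3.11.15.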

Additional observations from a re-analysis of the deposited data

Results flagged for a closer look

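*Ifi27l2b* was marked because its scaled values with FAEE-SAP lay on opposite sides of the saline mean in the 2 genotypes. Its scaled RPKM in the WT FAEE-SAP libraries minus the mean of WT saline was -0.0615 and -0.217, and in the cKO FAEE-SAP libraries minus the mean of cKO saline it was 3.18 and 4.71. The values in WT rest on about 3 to 13 reads, and the WT groups overlapped, so no direction is established in WT. With the deposited RPKM the WT libraries were 0.0967 and 0.435 with saline and 0.519 and 0.196 with FAEE-SAP, and the mean with FAEE-SAP was the higher. The difference was not tested, because *Ifi27l2b* was chosen for its excess in cKO.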

How the results depend on the processing

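For the response of cKO mice, *Gal* kept its direction under every alternative run and was never called, with adjusted p-values of 0.0703 to 0.683. *Ifi27l2b* also kept its direction, which its choice favours. *Gm4744* turned to 0.11 (adjusted p = 0.941) with the deposited values, and ranged from -2.30 to 1.32 as each library was left out. *Sostdc1* ranged from -1.74 to 0.48. Leaving out a library leaves 1 in its group, which is assumed to vary like the others.

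The number of genes called depended on the settings, and the cause was not tested. With the deposited values it was 15 for the cKO response, 7270 for the WT response, 4427 for cKO against WT with FAEE-SAP, 2 for cKO against WT with saline, and 791 for the interaction. With quantile normalization it was 80, 1, and 25 for the last 3. Without a filter it was 0 for the cKO response, 259 for the WT response, and 0 for the genotypes with FAEE-SAP and for the interaction. A single model of all 8 libraries gave 15 for the cKO response and 295 for the genotypes with FAEE-SAP. Without the trend the latter count was 57 and that of the interaction 3. The interaction count was 35 with a minimum of 2, 24 with a pseudocount of 1, and 1 with 0.01. As each library was left out, the counts were 0 to 6 in cKO, 97 to 491 in WT, 0 to 139 for the genotypes with FAEE-SAP, and 0 to 4 for the interaction.

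With replicate number as a block, the counts were 52, 442, 568, and 0 for the cKO response, the WT response, the genotypes with FAEE-SAP, and the interaction. The block cannot change a fold change in a balanced design. It called 1 interferon-stimulated gene higher and 2 acinar markers lower in cKO, 2 genes of BMP and WNT signaling and 5 islet markers higher in cKO than in WT with FAEE-SAP, and 0 islet markers in WT. *Ppp4r4* was not called in WT (limma adjusted p = 0.0708). The labels do not say that equal numbers mark shared mice or days. The deviations of same-numbered libraries correlated at 0.450 between the cKO groups, -0.175 between the WT groups, 0.313 between the FAEE-SAP groups, and -0.395 between the saline groups. Crossed pairing, added after the data were seen, gave 822 calls for the WT response and 0 for the genotypes with saline.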
